A study of Equus caballus with 23 samples.

Results

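The Z-disc is the lattice at the border of each sarcomere where actin filaments of opposite polarity are cross-linked and where titin is anchored. Proteins docked on it, and on the titin spring beside it, are known to respond to stretch and to hold the phosphatase calcineurin, a regulator of fibre type. The genes described here were the 8 listed symbols MYOZ2, MYOZ1, ANKRD2, CSRP3, LDB3, TCAP, MYOT and ACTN2, taken by symbol from the authors' annotation. All 8 were present among the 26991 genes of the count table, and all 8 passed the filter on low counts, which kept 11545 genes.

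Total RNA from the gluteus medius, a locomotor muscle of the hindquarters, was sequenced after needle biopsy of Arabian horses. The 5 T0 libraries came from untrained animals 2.5 years old (3 male, 2 female). The 8 T1 libraries came from animals 3 years old (4 male, 4 female) that had finished intense gallop training ahead of the flat racing season, and the 10 T2 libraries from animals 3 years old (7 male, 3 female) when the season closed. Libraries carry the numbers m1 to m23, and whether any animal gave more than 1 biopsy is not stated, so they were compared as unpaired samples and p-values measure the spread between them. Age and training status cannot be told apart in comparisons with T0.

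Each of the 8 genes had 1 annotated transcript in the authors' tables, and the transcript's counts equalled the gene's counts in every library. MYOZ1 (ENSECAG00000016739, 61396150 to 61402663), ANKRD2 (ENSECAG00000008916, 31708700 to 31718433), LDB3 (ENSECAG00000024538, 83724056 to 83781184) and ACTN2 (ENSECAG00000009009, 74840540 to 74905512) lie on chromosome 1. MYOZ2 (ENSECAG00000017431) lies on chromosome 2 at 108329546 to 108367789, CSRP3 (ENSECAG00000016087) on chromosome 7 at 87104375 to 87122210, TCAP (ENSECAG00000011860) on chromosome 11 at 22734026 to 22735269 and MYOT (ENSECAG00000020883) on chromosome 14 at 38514581 to 38529970. These positions are as the authors' tables give them, on a build not given in the sources used here.

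Total counts were 12604125 to 17477172 in T0 libraries, 15417737 to 23641809 in T1 libraries and 12185608 to 19804694 in T2 libraries, and no library pair held identical values. All 8 fixed skeletal muscle markers were detected, and their summed level was 43820 to 98590 CPM in T0, 70880 to 122700 CPM in T1 and 46040 to 86880 CPM in T2. The mean log2 CPM of 12 slow fibre markers minus that of 11 fast fibre marker genes, a score that contains no Z-disc gene described here, was between -5.45 and -3.80 in T0, between -2.54 and 4.12 in T1 and between -5.09 and -2.85 in T2. T1 library m3 stood apart with the score of 4.12, ahead of m11 with 0.24. The T1 scores overlapped neither those of T0 nor those of T2, so a shift in fibre makeup and a change within fibres cannot be told apart in comparisons with T1. In bulk muscle, fewer fibres of a type and less RNA per fibre likewise cannot be told apart.

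In muscle after the gallop phase, 3 of the 8 genes were higher than in untrained muscle: MYOZ2, ANKRD2 and ACTN2. None of the 8 was lower, and 5 did not pass. By the same rule, a Benjamini-Hochberg adjusted p below 0.05 in edgeR's quasi-likelihood test, 6.91% of all 11545 genes tested were called, 3.57% higher and 3.34% lower in T1. At the end of the season 4 of the 8 genes, the same trio and TCAP, were lower than after the gallop phase, where 27.6% of all genes were called, 12.6% higher and 15.1% lower. Between the end of the season and the untrained state 1 gene, ANKRD2, was higher, where 16% of all genes were called, 6.73% higher and 9.3% lower. The median log2 fold change of the 8 genes was 0.99 for T1 against T0, -0.54 for T2 against T1 and 0.27 for T2 against T0, where the medians of all genes were -0.02, -0.01 and -0.03. The comparisons share libraries, so a high T1 value enters both of the first.

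**Figure D1:**
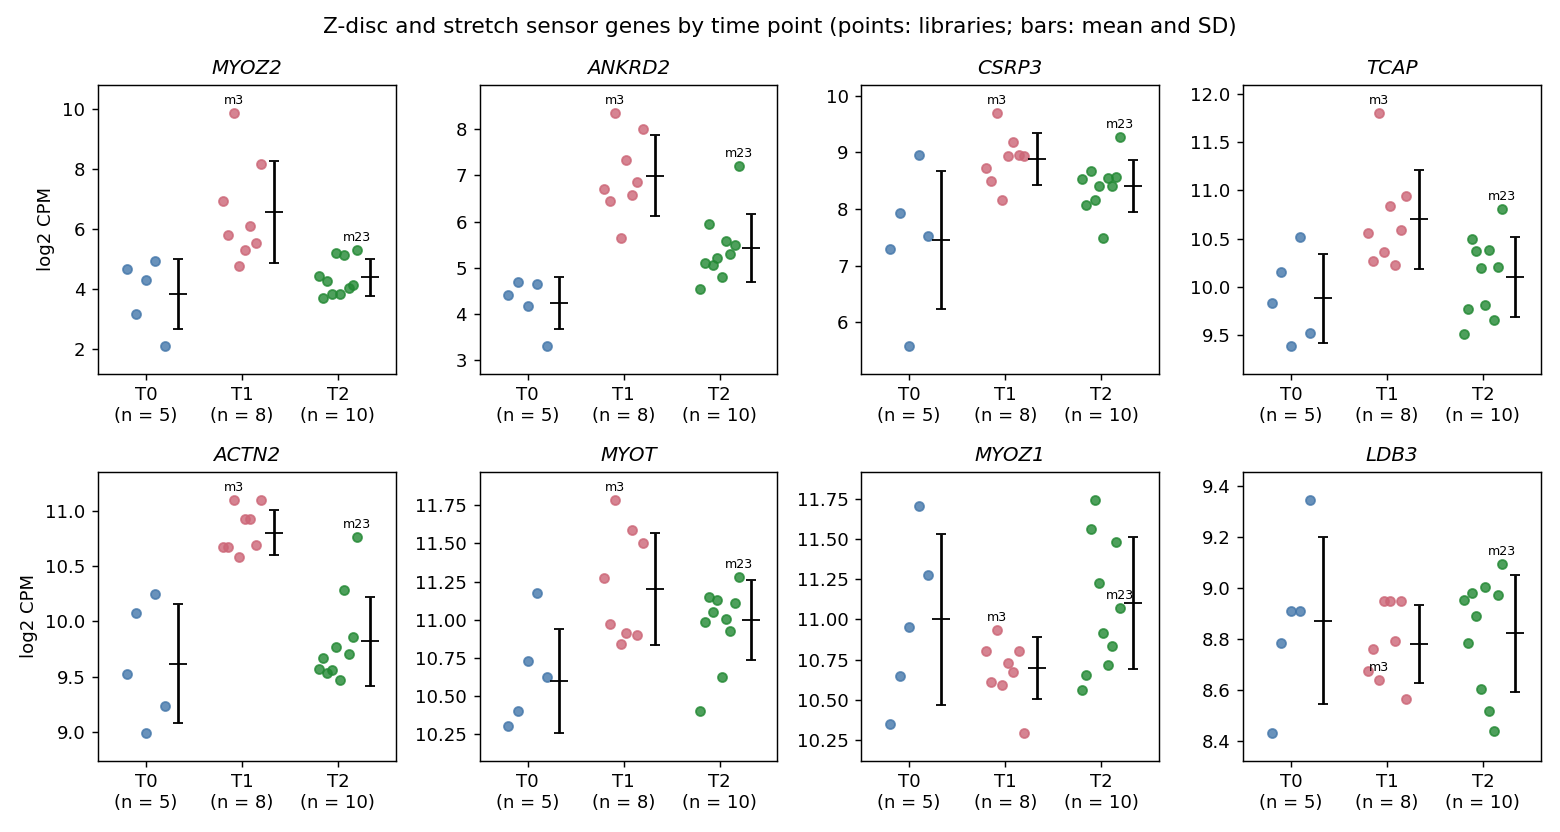
Level of each Z-disc gene as log2 CPM (vertical axis, a different range in each panel) in the libraries of T0, T1 and T2 (horizontal axis). Each point is 1 library, and the bars give the mean and SD. ANKRD2 and ACTN2 lie higher in every T1 library than in any T0 library, and T1 library m3 is the highest of all libraries for MYOZ2, ANKRD2, CSRP3, TCAP and MYOT. With scaling to total counts alone ACTN2 overlaps (4 of 8 T1 libraries above T0), and m3 is highest for MYOZ2 and TCAP but not for the other 3.

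The myozenins, also called calsarcins, bind alpha-actinin and calcineurin at the Z-disc, and the isoform MYOZ2 is typical of slow fibres and the heart. MYOZ2 had 25.2, 8.79, 19.7, 30.5 and 4.16 CPM in T0 libraries m8, m9, m10, m12 and m13. In T1 its lowest, median and highest values were 26.9, 62.0 and 938 CPM, and in T2 they were 12.9, 18.2 and 39.6 CPM. Thus 7 of 8 T1 libraries lay above every T0 library, with only m4 inside the T0 range, and m3 lay far above the next T1 library, m11, at 288 CPM. The counts behind these values ran from 74 in m13 to 10708 in m3.

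MYOZ2 rose by 3.49 ± 0.85 on the log2 scale in T1 relative to T0 (SE, edgeR adjusted p = 0.0177). The rise was 2.40 without m3 (adjusted p = 0.0227) and 1.78 without both m3 and m11 (adjusted p = 0.0415), a fit added after seeing the data. The call ended without T0 library m10 (3.52, adjusted p = 0.0505) and with only T0 and T1 in the fit (3.49, adjusted p = 0.0834). In T2 relative to T1 MYOZ2 had a log2 difference of -3.13 ± 0.63 (SE, adjusted p = 0.00117), which was -2.03 without m3 (adjusted p = 0.00237) and -1.41 without m3 and m11 (adjusted p = 0.01). In limma voom with sample weights the values were 2.14 for T1 against T0 (adjusted p = 0.0152) and -1.61 for T2 against T1 (adjusted p = 0.00927). T2 and T0 libraries overlapped, and the difference of 0.36 ± 0.72 between T2 and T0 did not pass (adjusted p = 0.76).

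MYOZ1, a myozenin typical of fast fibres, had 1305, 1603, 1987, 3330 and 2474 CPM in T0 libraries m8, m9, m10, m12 and m13. In T1 it ran from 1259 through a median of 1667 to 1955 CPM, and in T2 from 1512 through 2043 to 3428 CPM. The T1 values were the tightest, with an SD of 0.19 on the log2 CPM scale against 0.53 in T0 and 0.41 in T2, and they overlapped both other groups. Its log2 fold change was -0.37 ± 0.22 for T1 against T0 (SE, edgeR adjusted p = 0.33) and 0.44 ± 0.18 for T2 against T1 (adjusted p = 0.0744), and neither passed. The second difference passed in DESeq2 (0.44, adjusted p = 0.0443), in limma voom with sample weights (adjusted p = 0.023), with only T1 and T2 in the fit (adjusted p = 0.0428), without T0 library m12 (adjusted p = 0.0497) and without T2 library m14 (0.49, adjusted p = 0.0486). MYOZ1 did not differ detectably between T2 and T0 (0.07 ± 0.21, adjusted p = 0.853). MYOZ3, another myozenin, named after its values were seen, had -0.03 for T1 against T0 (edgeR adjusted p = 0.934). It was lower in T2 than in T1 (-0.33, adjusted p = 0.0256) and than in T0 (-0.36, adjusted p = 0.0493).

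MYOZ1 and MYOZ2 can also be set against each other inside each library, where the scaling of libraries cancels. There were 51.8 to 594 MYOZ1 counts for each MYOZ2 count in T0, 2.08 to 57.4 in T1 and 48.5 to 244 in T2, with medians of 109, 26.1 and 119. Library m3, with 2.08, and library m11, with 4.37, had the lowest ratios of all 23 libraries. In T1 the ratio was under the lowest T0 value in 7 of 8 libraries, the exception being m4. These are ratios of counts, not of transcripts per length, and they serve to compare libraries, not the level of the paralogs.

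**Figure D2:**
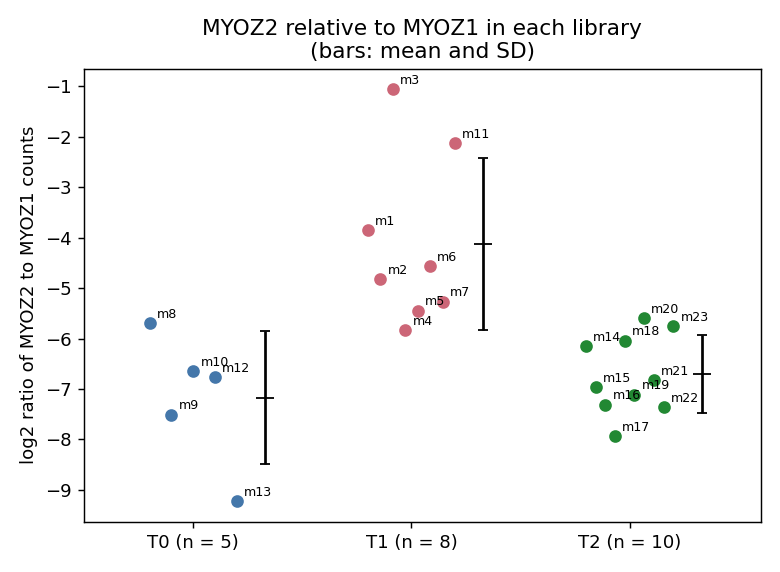
Log2 ratio of MYOZ2 to MYOZ1 counts (vertical axis) in each library of T0, T1 and T2 (horizontal axis), with the mean and SD beside the points. The ratio averaged -7.17 in T0, -4.13 in T1 and -6.71 in T2, and T1 libraries m3 and m11 lie highest at -1.06 and -2.13.

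ANKRD2 encodes an ankyrin repeat protein that binds titin's spring region and is induced by stretch, mainly in slow fibres. It had 21.2, 25.7, 17.8, 24.8 and 9.79 CPM in T0 libraries m8, m9, m10, m12 and m13. Its lowest, median and highest values were 50.1, 110.0 and 326.7 CPM in T1 and 23.2, 38.2 and 146.8 CPM in T2. Every T1 library lay above every T0 library, and 9 of 10 T2 libraries also lay above every T0 library, or 6 of 10 with scaling to total counts alone.

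ANKRD2 rose by 2.91 ± 0.50 on the log2 scale in T1 relative to T0 (SE, edgeR adjusted p = 0.00204), a call that held in all 23 fits that each left out 1 library (2.66 to 3.04). In T2 it was lower than in T1, with a log2 difference of -1.60 ± 0.36 (adjusted p = 0.00265), and higher than in T0, with 1.32 ± 0.45 (adjusted p = 0.0476). The difference between T2 and T0 is close to the threshold. Its call ended in 17 of 23 fits that left out 1 library, with values from 0.96 (without T2 library m23) to 1.44 and adjusted p-values of up to 0.126 (without T0 library m13). The call was likewise lost when low-count genes were kept (1.35, adjusted p = 0.0804) and with scaling to total counts alone (1.01, adjusted p = 0.0936). With the fibre score as a covariate the T2 against T0 difference was 1.10 (adjusted p = 0.024). The slope of that covariate was fitted over all 23 libraries, those of T1 among them. The part of fibre makeup in this difference was not tested. Of the 10 T2 libraries 8 lay below every T1 library, and m23 (146.8 CPM) and m16 (61.2 CPM) reached into the T1 range. Without m3 and m11 the T2 against T1 value was -1.05 (adjusted p = 0.0255).

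CSRP3, the muscle LIM protein, docks on telethonin and alpha-actinin and is regarded as part of the stretch-sensing machinery. It had 155.7, 242.5, 47.7, 493 and 183.6 CPM in T0 libraries m8, m9, m10, m12 and m13. Its lowest, median and highest values were 286.5, 490.8 and 831 CPM in T1 and 178.2, 354 and 619.9 CPM in T2. The T0 values ran from below all other libraries (m10) to the middle of T1 (m12), and on the log2 CPM scale their SD was 1.22, against 0.46 in T1 and 0.46 in T2, while 8 of 8 T1 libraries exceeded the T0 median.

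The log2 fold change of CSRP3 was 1.14 ± 0.36 in T1 against T0 (SE), just short of the threshold (edgeR adjusted p = 0.0564). It passed without T0 library m12 (1.66, adjusted p = 0.00511), without T1 library m4 (1.23, adjusted p = 0.0462) or without T2 library m23 (1.14, adjusted p = 0.0497). It also passed in DESeq2 (1.15, adjusted p = 0.0147), in limma voom with sample weights (1.67, adjusted p = 0.00589) and with sex as a covariate (1.28, adjusted p = 0.0222). In T2 it had -0.47 ± 0.29 against T1 (adjusted p = 0.225) and 0.67 ± 0.34 against T0 (adjusted p = 0.182). Without m12 the T2 against T0 value was 1.18 (adjusted p = 0.0161), and in limma voom with sample weights it was 1.34 (adjusted p = 0.0125).

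TCAP, or telethonin, caps the ends of paired titin molecules in the Z-disc. It had 907.9, 1140, 669.6, 1464 and 735 CPM in T0 libraries m8, m9, m10, m12 and m13. It ran from 1194 through a median of 1523 to 3570 CPM in T1, and from 728 through 1176 to 1793 CPM in T2. All 8 T1 libraries exceeded the T0 median, 5 of them exceeded every T0 library, and m3 stood at 3570 CPM against 1966 CPM for the next.

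TCAP differed by 0.85 ± 0.27 on the log2 scale between T1 and T0 (SE), which did not pass (edgeR adjusted p = 0.053). It passed in 6 of 23 fits that left out 1 library (m2, m4, m6, m12, m14 or m23, with adjusted p-values down to 0.024 without m12). It passed too when low-count genes were kept (adjusted p = 0.0454), in DESeq2 (adjusted p = 0.0162), in limma voom with sample weights (0.76, adjusted p = 0.0164) and with sex as a covariate (0.91, adjusted p = 0.0203). It fell by 0.61 in T2 relative to T1 (SE 0.22, adjusted p = 0.0344). That call ended in 7 of 23 such fits (without m3, m5, m11, m14, m15, m19 or m21) and was -0.39 without m3 (adjusted p = 0.103). It was -0.32 without m3 and m11 (adjusted p = 0.212), -0.43 in limma voom with sample weights (adjusted p = 0.0532) and -0.45 with scaling to total counts alone (adjusted p = 0.0512). T2 against T0 gave 0.23 ± 0.25 (adjusted p = 0.545).

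ACTN2 encodes the alpha-actinin that cross-links actin in the Z-discs of every fibre type, whereas its paralog ACTN3 is restricted to fast fibres. ACTN2 had 739, 1078, 511, 1218 and 605 CPM in T0 libraries m8, m9, m10, m12 and m13. It ran from 1529 through a median of 1797 to 2192 CPM in T1, and from 709.5 through 823 to 1732 CPM in T2. Every T1 library lay above every T0 library, and 9 of 10 T2 libraries lay below every T1 library, the exception being m23. ANKRD2 and ACTN2 were the 2 of 8 genes whose T1 and T0 values did not overlap, both higher in T1, where 2.98% of all genes did not overlap (1.86% higher and 1.12% lower). With scaling to total counts alone ANKRD2 still did not overlap, ACTN2 had 4 of 8 T1 libraries above every T0 library, and MYOZ1 had 8 of 8 T1 libraries below every T0 library. None of the 8 separated in T2 against T1, where 2.23% of all genes did (0.788% higher and 1.45% lower), nor in T2 against T0, where 2.67% did (0.944% higher and 1.72% lower).

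ACTN2 rose by 1.15 ± 0.23 on the log2 scale in T1 relative to T0 (SE, edgeR adjusted p = 0.00397) and had a log2 difference of -0.97 ± 0.18 in T2 relative to T1 (adjusted p = 0.000485). Both calls held in all 23 fits that left out 1 library, with ranges of 1.02 to 1.33 and of -1.11 to -0.91. Without m3 and m11 they were 1.07 (adjusted p = 0.0139) and -0.88 (adjusted p = 0.00223). The difference of 0.18 ± 0.21 between T2 and T0 did not pass (adjusted p = 0.59). ACTN3 moved the other way, falling by 1.67 in T1 relative to T0 (SE 0.42, adjusted p = 0.018) and rising by 1.28 ± 0.37 in T2 relative to T1 (adjusted p = 0.0119).

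MYOT, or myotilin, binds alpha-actinin, filamin C and actin and helps to bundle actin at the Z-disc. It had 1267, 1355, 1699, 2309 and 1576 CPM in T0 libraries m8, m9, m10, m12 and m13, a lowest, median and highest value of 1832, 2237 and 3532 CPM in T1, and of 1351, 2088 and 2485 CPM in T2. All 8 T1 libraries exceeded the T0 median and 4 exceeded every T0 library. Its log2 fold changes were 0.58 ± 0.19 for T1 against T0 (SE, edgeR adjusted p = 0.0676), -0.28 ± 0.16 for T2 against T1 (adjusted p = 0.194) and 0.31 ± 0.19 for T2 against T0 (adjusted p = 0.257). The first passed without T0 library m12 (0.74, adjusted p = 0.0214), in DESeq2 (0.59, adjusted p = 0.0182) and in limma voom with sample weights (0.48, adjusted p = 0.0452).

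LDB3, also known as ZASP or Cypher, is a PDZ and LIM domain protein that binds alpha-actinin and keeps the Z-disc intact under load. It had 345, 440, 479.9, 481 and 650.2 CPM in T0 libraries m8, m9, m10, m12 and m13. It ran from 378 through a median of 438 to 494 CPM in T1 and from 346 through 485 to 545 CPM in T2, so every T1 and T2 library fell inside the range of T0, whereas with scaling to total counts alone 2 of 8 T1 libraries lay below it. Its log2 fold changes were the smallest of the 8 genes in T1 against T0 (-0.11 ± 0.14, SE, edgeR adjusted p = 0.716) and in T2 against T1 (0.05 ± 0.12, adjusted p = 0.805). T2 against T0 gave -0.07 ± 0.14 (adjusted p = 0.77).

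**Figure D3:**
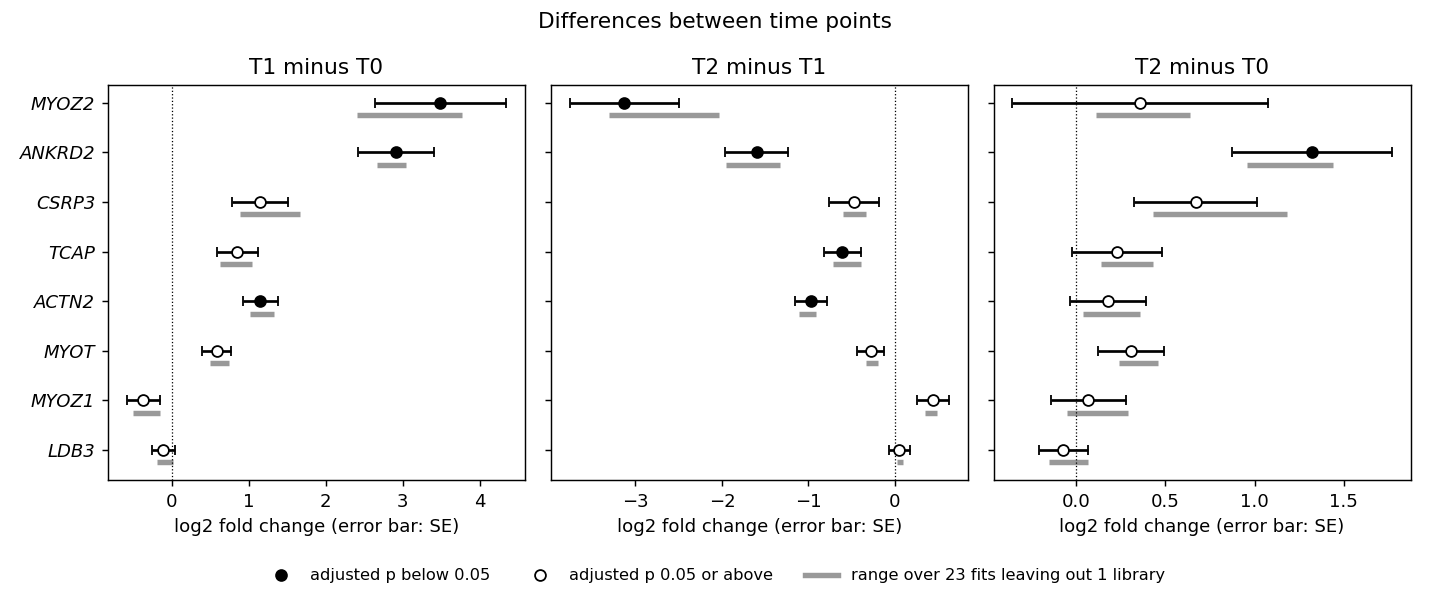
Log2 fold change (horizontal axis, a different range in each panel) of the 8 Z-disc genes in T1 against T0, T2 against T1 and T2 against T0, with SE bars. Filled points passed an adjusted p below 0.05, and grey bars give the range over 23 fits that each left out 1 library. In T1 against T0 MYOZ2 has the widest range, from 2.40 to 3.77, and LDB3 runs from -0.20 to 0.02.

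The call for MYOZ2, ANKRD2 and ACTN2 in T1 ended in a fit that took the fibre score as a covariate. There MYOZ2 had a log2 difference of 0.17 for T1 against T0 (edgeR adjusted p = 0.902), ANKRD2 had 1.49 (adjusted p = 0.19) and ACTN2 had 0.70 (adjusted p = 0.316). For T2 against T1 the values were -0.09 (adjusted p = 0.89), -0.39 (adjusted p = 0.442) and -0.59 (adjusted p = 0.0541). Over all genes, calls with this covariate numbered 1 for T1 against T0, against 798 without it, and 2597 for T2 against T1, against 3188 without it. Of the 12 slow fibre markers 11 were higher and 0 lower in T1 than in T0, and their summed level was 30560 to 137500 CPM in T1 and 8615 to 32970 CPM in T0. Of the 11 fast fibre marker genes 0 were higher and 4 lower in T1, with a summed level of 2654 to 57100 CPM in T1 and 52070 to 112400 CPM in T0. These 11 genes carry 10 of the 13 symbols listed, and MYH1, MYH4 and PVALB were not found. The symbol MYH2 covers 2 genes, with -3.42 (edgeR adjusted p = 0.00364) and 0.17 (adjusted p = 0.892) for T1 against T0. At T2 0 slow markers were higher and 10 lower than at T1, and 10 fast marker genes were higher and 0 lower. The part of the fibre markers' shift in the Z-disc genes' changes was not tested. Among markers of other cells in T1 against T0, the fibroblast genes DCN (-0.82) and COL3A1 (-1.45) were lower, 2 of 6 tested. COL1A2 (-1.48), COL1A1 (-1.33), FBN1 (-0.81) and LUM (-0.68) shared their sign and did not pass. Of the 6 fibroblast genes 5 had an unadjusted p below 0.05 in edgeR. The smooth muscle gene LMOD1 was lower (-2.31, 1 of 6 smooth muscle and pericyte genes), and the adipocyte marker LPL was higher (1.03, 1 of 3). The other adipocyte genes, ADIPOQ (-1.37) and FABP4 (0.09), did not pass. Of 7 endothelial genes and 5 macrophage genes 0 passed in edgeR, and 0 of either had an unadjusted p below 0.05. TNNI3, the only 1 of 6 cardiac markers found, was higher in T1 than in T0 (1.72, adjusted p = 0.0142) and lower in T2 than in T1 (-1.07, adjusted p = 0.0143), at 0.957 to 7.36 CPM in T1 and 0.45 to 1.70 CPM in T0. In T2 against T1, LMOD1 was higher (1.51) and the pericyte gene RGS5 lower (-0.65). Of the same list PDGFRB (-0.31), ACTA2 (0.60), TAGLN (0.64) and MYH11 (0.96) did not pass. LPL was lower (-0.91, 1 of 3), while FABP4 (0.44) and ADIPOQ (0.56) had the other sign and did not pass. The macrophage gene CSF1R was lower (-0.77, 1 of 5). C1QA (-0.58) and C1QB (-0.51) shared its sign, CD68 (0.23) and CD14 (0.18) had the other, and none of these passed. In T2 against T0, RGS5 (-0.82) and PDGFRB, another pericyte gene (-0.78), were lower, 2 of 6 tested. LMOD1 (-0.81) and MYH11 (-0.84) shared their sign, TAGLN (0.16) and ACTA2 (0.05) had the other, and none of these passed. The part of these markers of other cells in the result was not tested.

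Within time points, the libraries with the highest fibre scores were also high for several Z-disc genes. T1 libraries m3 and m11, with the highest fibre scores, had the highest and second highest MYOZ2 (938 and 288 CPM), ANKRD2 (326.7 and 257.7 CPM) and TCAP (3570 and 1966 CPM) of T1. T2 library m23, with the highest T2 score of -2.85, had the highest T2 values of MYOZ2 (39.6 CPM), ANKRD2, CSRP3, TCAP, MYOT, ACTN2 and LDB3. T0 library m12, with the highest T0 score of -3.80, had the highest T0 values of MYOZ2, CSRP3, TCAP, MYOT, ACTN2 and MYOZ1. T0 library m8 had nearly the same score (-3.83) but the lowest T0 values of MYOT (1267 CPM), MYOZ1 (1305 CPM) and LDB3 (345 CPM). These orders depend on the scaling of libraries. In CPM of total counts alone m12 was the highest T0 library for CSRP3 alone, m11 was above m3 for ANKRD2 (264.8 and 215.7 CPM), and m23 was no longer the highest T2 library for MYOT and LDB3. The TMM factors of m12 and m3 were 0.749 and 0.66, and the mitochondrially encoded share of counts was 54.95% in m12 and 35.99% to 45.73% in the other T0 libraries. It was 44.66% to 56.67% in T1 and 42.53% to 52.26% in T2. A fit that left out the mitochondrially encoded genes changed none of the 24 calls of the 8 genes. Any other part of this share in the result was not tested. The nearest pair of scores across T2 and T1 was m23, with -2.85, and T1 library m4, with -2.54. In that pair ANKRD2 had 146.8 CPM in m23 and 50.1 CPM in m4, and ACTN2 had 1732 CPM in m23 and 1529 CPM in m4. MYOZ2 had 39.6 CPM in m23 and 26.9 CPM in m4. For these genes m23 was the highest T2 library and m4 the lowest T1 library in TMM-scaled CPM. The pair is 1 library against 1, and the part of fibre makeup in these values was not tested.

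**Figure D4:**
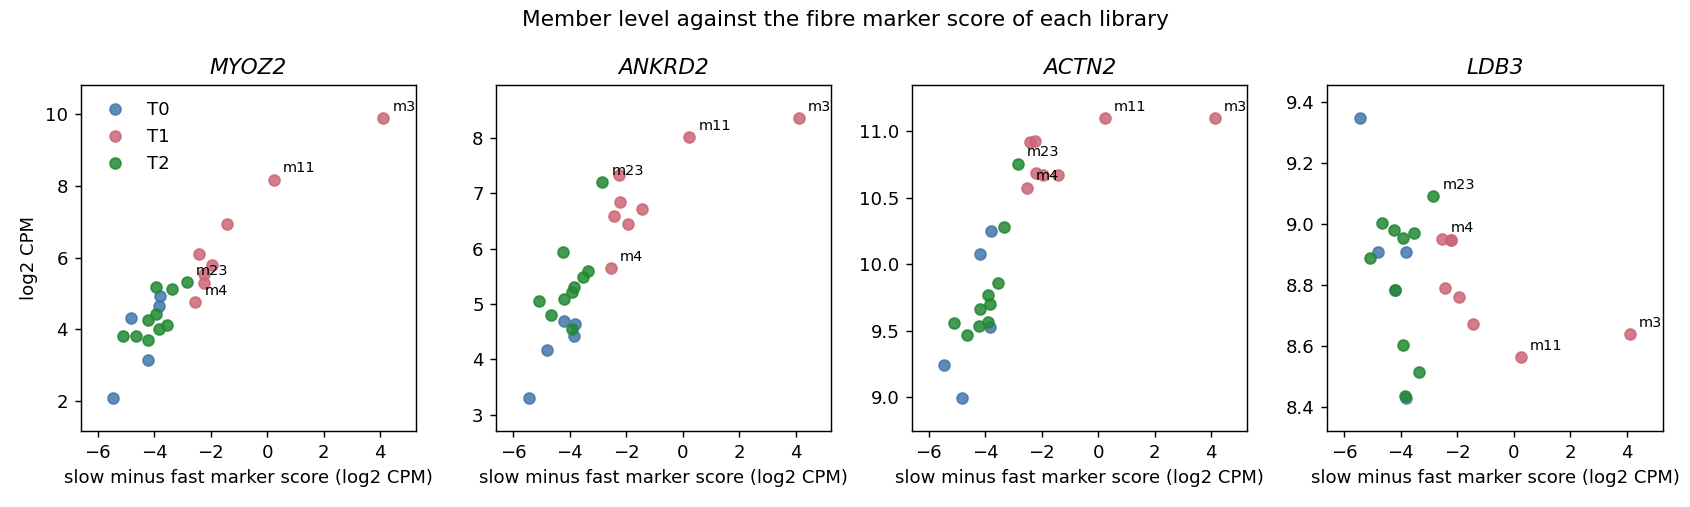
Level of MYOZ2, ANKRD2, ACTN2 and LDB3 as log2 CPM (vertical axis) against the slow minus fast fibre marker score (horizontal axis, log2 CPM) in each library, coloured by time point. T1 libraries lie to the right of all T0 and T2 libraries, from -2.54 to 4.12, m3 and m11 are highest for MYOZ2 and ANKRD2, and LDB3 is lower in m3 and m11 than in m23.

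Genes most like each of the 8 were taken as the 3 of 8842 genes with a symbol whose log2 CPM had the highest Pearson r with it over 23 libraries, after the mean of each time point was subtracted. The libraries share their sequencing depth and fibre makeup across genes, so these values are a description and carry no test. For ACTN2 the nearest genes were ATP2A2, the slow fibre calcium pump (r = 0.858), MYH7, the slow myosin heavy chain (r = 0.813), and KCNIP2, a potassium channel partner (r = 0.811). Without the 2 libraries farthest from the median, m12 and m23, these values were 0.73, 0.627 and 0.629. For CSRP3 the nearest genes were ACTN2 (r = 0.778, and 0.70 without m12 and m23), ZNF75D, a zinc finger gene (r = 0.776, and 0.703 without m4 and m10), and PRKCQ, a protein kinase C (r = 0.75, and 0.51 without m10 and m12). ANKRD2 was nearest to ACADM, the medium-chain acyl-CoA dehydrogenase (r = 0.825), ACSF2, an acyl-CoA synthetase family member (r = 0.814), and TCAP (r = 0.814, and 0.711 without m3 and m23). TCAP was nearest to ACSF2 (r = 0.893), MYBPC1, the slow myosin-binding protein C (r = 0.883), and SMTNL1, a smoothelin-like protein (r = 0.874).

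MYOZ2 was nearest to SMCO1 (r = 0.861), N6AMT2 (r = 0.853) and FKBP3 (r = 0.848), and without m3 these values were 0.743, 0.768 and 0.738. MYOZ1 was nearest to PPP1R1A, a protein phosphatase inhibitor (r = 0.929), SMARCD3, a chromatin remodelling subunit (r = 0.923), and REPS1 (r = 0.903), and without m12 and m17 these values were 0.888, 0.881 and 0.853. MYOT was nearest to GPBP1 (r = 0.836), CFL2, the muscle cofilin that severs actin (r = 0.832), and HNRNPDL (r = 0.82). LDB3 was nearest to MAZ, a zinc finger factor (r = 0.879), ARAF, a kinase (r = 0.859), and PACS2 (r = 0.853). ATP2A2 and MYH7 are on the slow fibre marker list, and no other gene named here as nearest is on either fibre list.

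Of 27 other Z-disc genes tested, 2 were higher, 3 lower and 22 did not pass in T1 relative to T0, where 3.57% of all genes were higher and 3.34% lower. The median log2 difference of these genes was 0.22, against -0.02 for all genes. CRYAB, a small chaperone of the Z-disc and of desmin, rose by 1.23 ± 0.22 (SE, edgeR adjusted p = 0.00246). CAPZA1, a subunit of the protein that caps actin at the Z-disc, fell by 0.68 (SE 0.17, adjusted p = 0.0167). The 5 calls became 2 without T0 library m10 or m13, and 8 in DESeq2. In T2 relative to T1, 4 were higher, 12 lower and 11 did not pass (median -0.49 against -0.01), where 12.6% of all genes were higher and 15.1% lower. FHOD3, a formin that assembles sarcomeric actin, had a log2 difference of -1.22 ± 0.20 (adjusted p = 0.000133) and PLEC, the linker plectin, of -1.22 ± 0.22 (adjusted p = 0.000393). CAPZA1 rose by 0.71 ± 0.14 (adjusted p = 0.00091).

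In T2 relative to T0, 1 of the 27 was higher, 6 were lower and 20 did not pass (median -0.14 against -0.03). Of all genes 6.73% were higher and 9.3% lower. CRYAB rose by 0.86 ± 0.21 (SE, edgeR adjusted p = 0.0103), while OBSL1, an obscurin-like linker, had a log2 difference of -0.77 ± 0.22 (adjusted p = 0.0219) and PLEC of -0.88 ± 0.25 (adjusted p = 0.022). These 7 calls became 1 when T0 library m13 was left out, 2 when m10 was, and 4 when T0 library m9 or T2 library m16, m17, m18 or m21 was.

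Of 22 titin-linked, strain-linked and calcineurin genes tested, 3 were higher, 1 was lower and 18 did not pass in T1 relative to T0 (median 0.14), where 3.57% of all genes were higher and 3.34% lower. RCAN2, a calcineurin regulator, rose by 1.77 ± 0.31 (SE, edgeR adjusted p = 0.00225), FHL2, a LIM protein of titin and the Z-disc, by 2.58 ± 0.55 (adjusted p = 0.00758) and FHL1, a related LIM protein, by 1.11 ± 0.28 (adjusted p = 0.0186). The 4 calls became 2 without T0 library m10 and 7 in DESeq2. In T2 relative to T1, 3 were higher, 5 lower and 14 did not pass (median 0.06), where 12.6% of all genes were higher and 15.1% lower. FHL2 had a log2 difference of -2.52 ± 0.43 (adjusted p = 0.000243) and RCAN2 of -1.37 ± 0.24 (adjusted p = 0.000294), and PPP3CB, a catalytic subunit of calcineurin, rose by 0.67 ± 0.13 (adjusted p = 0.000773). ANKRD1, the cardiac paralog of ANKRD2, named after its values were seen, had -2.17 ± 0.70 (adjusted p = 0.0263). It did not pass in T1 against T0 (2.68 ± 0.93, adjusted p = 0.0866) or in T2 against T0 (0.51 ± 0.82, adjusted p = 0.698). ANKRD23, on the same list, passed in no comparison (-0.03 for T1 against T0, -0.25 for T2 against T1, -0.29 for T2 against T0). In T2 relative to T0, where 6.73% of all genes were higher and 9.3% lower, 1 was higher and 0 lower, namely TRIM54, a ring finger protein of the M-band and Z-disc (0.53 ± 0.16, adjusted p = 0.0268). That count of 1 was 0 without T0 library m8 or m9, 2 without T0 library m12 or T2 library m18, m19 or m20, and 3 without T1 library m3 or T2 library m23.

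The scaling of libraries bears on the size of these differences. Scaling to total counts alone, added after seeing the data, moved the median log2 fold change of all genes to -0.42 for T1 against T0, to 0.13 for T2 against T1 and to -0.29 for T2 against T0. Under it 127 genes were higher and 3250 lower in T1 than in T0, against 412 and 386 with TMM. For T2 against T1 it gave 2073 higher and 632 lower, against 1450 and 1738 with TMM, and for T2 against T0 46 and 1549, against 777 and 1074. MYOZ2, ANKRD2 and ACTN2 kept their calls in both comparisons with T1, with 2.92, 2.45 and 0.79 for T1 against T0. ANKRD2 lost its call for T2 against T0, and TCAP its call for T2 against T1 (-0.45, edgeR adjusted p = 0.0512). MYOZ1 then passed in T1 against T0 (-0.68, adjusted p = 0.00132) and in T2 against T1 (0.55, adjusted p = 0.000985). LDB3 also passed in T1 against T0 at -0.48 (adjusted p = 0.0328), next to the all-gene median of -0.42, and CSRP3 at 0.88 (adjusted p = 0.0301).

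Sex was tested in an additive model with time point. Of the 8 genes 0 passed in edgeR and 2 had an unadjusted p below 0.05. TCAP had the smallest, with a log2 difference, female minus male, of -0.49 ± 0.18 (SE, edgeR p = 0.0101, adjusted p = 0.752), followed by CSRP3 with -0.57 ± 0.25 (edgeR p = 0.0294, adjusted p = 0.776). The difference between the sexes in the change between time points passed for 0 of the 8 genes in edgeR (adjusted p from 0.998 to 1). The smallest unadjusted p among these was that of LDB3 in T2 against T0 (0.0477), and with 2 females in T0 these values rest on few libraries.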

How the data were processed

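Libraries were made with the TruSeq RNA kit v2 from total RNA, per the labels' protocols, and sequenced for 50 single-end cycles in 6 technical repetitions. FastQC, STAR, RSEM and DESeq2 are named in the submitters' processing notes without versions. The authors deposited expected counts, all whole numbers. Symbols and positions came from the authors' comparison tables, whose fold changes were not used here because their group letters are not explained.

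Genes were kept by filterByExpr (minimum count 10, minimum total 15), which left 11545 genes and 99.93% of counts, scaled by TMM and fitted in 1 robust quasi-likelihood model of 3 time points with edgeR 4.0.16 under R 4.3.3. SE was the absolute log2 fold change over the square root of F. CPM used TMM-scaled totals, and log2 CPM a prior count of 2. Alternatives used DESeq2 1.42.0 and limma 3.58.1. The fit was tested on simulated data. The 8 genes and the gene lists were chosen with earlier results of these data known. Named besides them were the 3 called genes of lowest p in each list, where there were as many, and the 3 most alike genes. A few paralogs were named after their values were seen. Of the fixed cell type markers, the erythroid list had no gene with that symbol. Figures used matplotlib 3.10.9.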

Additional observations from a re-analysis of the deposited data

Results flagged for a closer look

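In groups of 5, 8 and 10 libraries, the highest or lowest CPM was checked for a gap to its neighbour that is large against the range of its group. Of 24 groups of values 5 were picked out. The rule's rate of about 1 in 20 holds for normally distributed values in independent groups. The check used CPM without logs, and all 5 came from libraries m3 and m23, so the count cannot be set against that rate. T1 library m3 had 938 CPM of MYOZ2 against 288.4 CPM for the next T1 library, and 3570 CPM of TCAP against 1966 CPM. In CPM of total counts alone m3 had 619.2 CPM of MYOZ2 against 296.3 CPM, and 2357 CPM of TCAP against 2020 CPM. T2 library m23 had 146.8 CPM of ANKRD2 against 61.2 CPM for the next T2 library, 619.9 CPM of CSRP3 against 405.8 CPM, and 1732 CPM of ACTN2 against 1247 CPM. Library m3 also had the highest slow minus fast fibre marker score of all libraries (4.12), and m23 the highest of T2 (-2.85), and the part of the fibre makeup in these values was not tested. Without m23 the T2 against T0 value of ANKRD2 was 0.96 and no longer passed (edgeR adjusted p = 0.0665).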

How the results depend on the processing

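No paired analysis was possible because the sources used here do not say which libraries, if any, came from the same animal. The count of Z-disc genes called for T1 against T0, 3 of 8, was 6 in limma voom with sample weights, in DESeq2 and without m3 and m12 together, 5 with sex as a covariate, 0 with the fibre score as a covariate, 6 (4 higher and 2 lower) with scaling to total counts alone, and 2 to 6 when 1 library was left out. For T2 against T1, 4 of 8 became 0 with the fibre score and ran from 3 to 5 with 1 library left out. For T2 against T0, 1 of 8 became 0 with low-count genes kept or with scaling to total counts alone, 2 in limma voom, 3 without m3 and m12, and 0 to 1 with 1 library left out. Median ratio factors, a non-robust fit and the omission of mitochondrially encoded genes changed none of the 24 calls of the 8 genes.

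Over all genes, 798 calls for T1 against T0 became 1476 in limma voom and 1188 in DESeq2, which took 20348 genes. They became 871 with sex as a covariate and 800 without m3 and m12. Further counts were 1 with the fibre score, 3377 with scaling to total counts alone and 496 without m3 and m11. With 1 library left out they ran from 346 (without T0 library m10) to 904. The 3188 calls for T2 against T1 became 2597 with the fibre score and ran from 2665 to 3775 with 1 library left out. The 1851 calls for T2 against T0 became 2921 in limma voom, 2947 without m3 and m12, and 986 (without T0 library m13) to 2414 with 1 library left out, with 1075 without T0 library m9. The same count was 1573 with low-count genes kept and 1595 with scaling to total counts alone. For T1 against T0, the 5 calls among 27 other Z-disc genes became 0 with the fibre score, 3 without m3 and m11, with only 2 time points or with low-count genes kept, and 9 with scaling to total counts alone. The 4 among 22 titin-linked genes became 0 with the fibre score, 2 without m3 and m11 or with only 2 time points, 7 in limma voom and 10 with scaling to total counts alone. Their 8 for T2 against T1 became 2 with the fibre score and 5 without m3 and m11. For T2 against T0 the 7 other Z-disc calls became 3 with low-count genes kept and 4 with only 2 time points, and the 1 titin-linked call became 3 in DESeq2 or without m3 and m12, and 2 in limma voom, in the non-robust fit or without m3 and m11.

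Signs turned only where the value had not passed, except for TCAP. With the fibre score LDB3 had 0.08 for T1 against T0 and -0.12 for T2 against T1, CSRP3 0.13, TCAP 0.10 and MYOT 0.07 for T2 against T1. LDB3 was -0.01 for T2 against T1 without m3 and m11. With scaling to total counts alone MYOZ1 had -0.13, TCAP -0.01 and ACTN2 -0.04 for T2 against T0. With 1 library left out, LDB3 ran from -0.20 to 0.02 for T1 against T0 and from -0.15 to 0.07 for T2 against T0, and MYOZ1 from -0.05 to 0.29 for T2 against T0. The cause was not tested.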
